A study of Mus musculus with 12 samples.

Results

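The 84 genes described here are the ribosomal protein genes, taken from the 21887 protein-coding genes of the RefSeq table of the mouse assembly GRCm38.p6 by their symbols: every gene named Rpl or Rps with a number and at most 1 letter and a further number after it, together with Rplp0, Rplp1, Rplp2 and Rpsa. By symbol, 52 encode large-subunit and 32 small-subunit proteins, and the symbols also take in paralogs such as Rpl10l and Rps27l. The data were lists of H3K4me3 and H3K27me3 peaks from chromatin immunoprecipitation with sequencing of cKit+ bone marrow cells, a fraction rich in blood stem and progenitor cells. The tested mice were Ints11 conditional knockouts (KO_399 and KO_401), labelled Mx1Cre+ Ints11 flox/fox, and they were set against WT littermates (WT_407 and WT_409). Ints11 is the catalytic subunit of Integrator, which cleaves nascent RNAs. All mice were of the C57BL/6 strain, all had received poly(I:C), and the cells were sorted on day 4 afterwards. Poly(I:C) switches on Mx1Cre through interferon, in many cell types besides blood progenitors, and the controls had the same interferon stimulus. The labels give neither age nor sex, nor the share of cells in which Ints11 was deleted. The numbers in the labels are read as 2 mice per genotype, so that no two-sided exact permutation test of a single gene can give a p below 0.33, and the spread given is that between these libraries.

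Ribosomes are built from ribosomal RNA and a fixed set of proteins, each needed in about the same amount, and their genes are among the most strongly transcribed of a growing cell. In blood, loss of a single copy of one of them causes Diamond-Blackfan anaemia, a failure of red cell production. When ribosome assembly is disturbed, free Rpl5 and Rpl11 bind Mdm2 and so stabilise p53. H3K4me3 marks the start of active genes. H3K27me3 is the mark of Polycomb silencing. Many mammalian ribosomal protein mRNAs begin with a C and a run of pyrimidines, the 5′ terminal oligopyrimidine tract, through which mTOR signalling controls their translation.

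The following sequences show the promoters of members at both ends of the range of H3K4me3 and of paralogs without it, each from 100 bases before the annotated start to 20 bases from the start onwards. They come from RefSeq (GRCm38.p6, the coordinates of mm10) and are written 5′ to 3′ on the strand of the gene. Capitals mark a pyrimidine run at the start (C followed by at least 4 further C or T, beginning no more than 5 bases from the annotated start) and matches to the motifs named below.
Rpl13a, chr7:45128726-45128845, minus strand: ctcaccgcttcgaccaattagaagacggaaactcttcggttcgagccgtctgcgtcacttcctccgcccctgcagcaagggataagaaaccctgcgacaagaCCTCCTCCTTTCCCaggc
Rpl35, chr2:39005112-39005231, minus strand: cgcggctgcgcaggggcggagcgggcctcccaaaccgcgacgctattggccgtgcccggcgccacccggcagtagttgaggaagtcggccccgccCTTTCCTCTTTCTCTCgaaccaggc
Rpl7a, chr2:26910707-26910826, plus strand: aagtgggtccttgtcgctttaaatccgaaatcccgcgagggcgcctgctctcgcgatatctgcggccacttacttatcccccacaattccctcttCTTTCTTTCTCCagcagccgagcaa
Rps18, chr17:33955646-33955765, minus strand: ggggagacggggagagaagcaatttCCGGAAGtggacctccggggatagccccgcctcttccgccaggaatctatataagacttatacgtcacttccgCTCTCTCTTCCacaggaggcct
Rpl26, chr11:68901466-68901585, plus strand: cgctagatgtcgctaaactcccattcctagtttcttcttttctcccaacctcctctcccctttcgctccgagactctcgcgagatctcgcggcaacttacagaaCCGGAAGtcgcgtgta
Rps23, chr13:90923022-90923141, plus strand: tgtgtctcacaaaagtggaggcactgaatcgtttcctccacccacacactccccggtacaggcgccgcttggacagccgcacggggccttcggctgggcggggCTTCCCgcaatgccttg
Rpl22l1, chr3:28805408-28805527, plus strand: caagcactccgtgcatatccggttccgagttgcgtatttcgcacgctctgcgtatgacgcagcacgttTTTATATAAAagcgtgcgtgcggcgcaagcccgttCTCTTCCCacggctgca
Rps27l, chr9:66945986-66946105, plus strand: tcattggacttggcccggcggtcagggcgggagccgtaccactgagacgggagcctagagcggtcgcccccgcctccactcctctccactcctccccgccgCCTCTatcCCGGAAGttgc
Rpl10l, chr12:66284382-66284501, minus strand: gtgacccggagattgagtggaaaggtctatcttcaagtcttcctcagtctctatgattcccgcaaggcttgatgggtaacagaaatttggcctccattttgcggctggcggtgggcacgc
Rpl39l, chr16:10170128-10170247, plus strand: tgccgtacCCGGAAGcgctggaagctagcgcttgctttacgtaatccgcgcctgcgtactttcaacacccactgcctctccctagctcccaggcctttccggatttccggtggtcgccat
Rpl13a, Rpl35, Rpl7a and Rps18 are among the 5 members with the most H3K4me3. Their marked runs, counted by the rule above, hold 14, 16, 12 and 11 pyrimidines. In Rpl35, Rpl7a and Rpl22l1 further C or T bases stand directly before the marked run and are not counted. Rps23, Rpl22l1, Rps27l and Rpl26 are among the 5 with the least that still have it in all 4 libraries. Their runs are 6, 8 and 5 bases long in Rps23, Rpl22l1 and the Rps27l start printed, and Rpl26 has none. Another annotated start of Rps27l has no run. Not all members keep this order. Rpl15 has a run of 17 with a mean of 2830 bp under H3K4me3 peaks, and Rpl4 has none with 5708 bp. Whether run length goes with H3K4me3 was not tested. Rpl10l and Rpl39l, which have no H3K4me3 peak, show no such run, whereas Rpl32l, whose start no peak covered, has one of 10 bases. Rpl5, Rpl11 and Rpl23, which have H3K4me3 in all 4 libraries, have none either. Rpl22l1 alone of the promoters printed shows TATAAA in that stretch.

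Of the 84 members, 64 have a promoter of 300 bases in the table, with 76 annotated starts between them, and 20 have none there. A pyrimidine run lay at 32 of the 76 member starts (42.1%) and at 18.6% of 21263 starts of all protein-coding genes. The core site of ETS factors (CCGGAAG, either strand) was found in 35.5% of member promoters and 11.6% of all promoters, and the YY1 motif (GCCATNTT, either strand) in 22.4% and 6.37%. The shares were 10.5% and 7.84% for the E-box CACGTG, 2.63% and 1.33% for the NRF1 motif, and 10.5% and 12.6% for TATAAA, each over both strands. No searched motif contains another. The median share of G and C was 57.8% in member promoters and 56.3% in all promoters. These letters describe the promoters and show no binding.

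Several facts of the libraries bear on what follows. KO_399 and KO_401 had 27676 and 25090 listed H3K4me3 peaks, and WT_407 and WT_409 had 25145 and 26279. For H3K27me3 the numbers were 6542 and 7653 in KO, and 11930 and 9838 in WT. No list states how many reads it came from. The background at a summit could be solved from the authors' fold and p. How far it follows depth is not known, because the use of the inputs is not given. The most frequent background for H3K4me3 was 2.65 reads per position in KO_399, 1.93 in KO_401, 2.23 in WT_407 and 1.94 in WT_409. KO_399 also had the most bases under H3K4me3 peaks, 44.461 Mb, against 36.676 Mb in KO_401, 36.991 Mb in WT_407 and 38.572 Mb in WT_409, and the part of depth in this was not tested. H3K4me3 lay at all 8 stem and progenitor genes checked, among them Kit, in every library. Their summed covered length was 77477 and 62325 bp in KO_399 and KO_401, and 56923 and 60315 bp in WT_407 and WT_409. That sum was higher in both KO. H3K4me3 also lay at 4, 3, 3 and 5 of 5 B lymphoid genes and at 3, 3, 3 and 5 of 5 erythroid genes in KO_399, KO_401, WT_407 and WT_409. The summed covered length of the B lymphoid genes was 16999 and 9110 bp in KO and 8053 and 25818 bp in WT, and that of the erythroid genes 9627 and 7862 bp in KO and 7736 and 12308 bp in WT. The 5 granulocyte and monocyte genes were marked in every library, with 42122 and 36887 bp in KO and 34152 and 45494 bp in WT. The 4 stromal and endothelial genes were marked in every library too, with 10983 and 6316 bp in KO and 4326 and 5417 bp in WT, higher in both KO. The largest part of each sum was at Pecam1, with 6769 and 3564 bp in KO and 2481 and 2415 bp in WT. Cxcl12 had 1847 and 975 bp in KO and 910 and 861 bp in WT, and the groups overlapped at Cdh5 and Col1a1. Of 4 T lymphoid genes, 2 were marked in each library, and Cd3e and Cd8a were at 0. The part of other cell types in the values below was not tested. Around Ints11 (chromosome 4, 155869547 to 155889103) H3K4me3 covered 7629 and 6375 bp in KO and 6171 and 6311 bp in WT, and a promoter peak says nothing on whether the floxed part was lost.

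H3K4me3 lay within 5 kb of 81 of the 84 ribosomal protein genes in all 4 libraries (96.4%), against 64.3% of all protein-coding genes. Covered length, the number of bases under H3K4me3 peaks in the gene span and the 5 kb on either side, averaged 4050 bp per member in KO_399 and 3472 bp in KO_401, against 3672 bp in WT_407 and 3482 bp in WT_409. The members are short genes with a median span of 3179 bp, against 17169 bp over all genes, and so have smaller windows. Even so, the members with H3K4me3 had median covered lengths of 3804, 3324, 3352 and 2998.5 bp in KO_399, KO_401, WT_407 and WT_409, whereas all genes with the mark had 2743, 2351, 2378 and 2413 bp. The value went with the surroundings. At 61 members another protein-coding gene lies within 5 kb, and the median of their mean covered lengths was 3624 bp, against 2695 bp for the 23 members with no such neighbour. Inside the genes themselves, H3K4me3 covered a median of 66.97% and 57.8% of the member span in KO_399 and KO_401, and 62.3% and 56.0% in WT_407 and WT_409. The median over all 21887 genes, with or without H3K4me3, was 2.92%, 2.22%, 2.37% and 2.35% in the same order. Those genes are also longer, so that a peak of the same width covers a smaller share of their span.

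**Figure D1:**
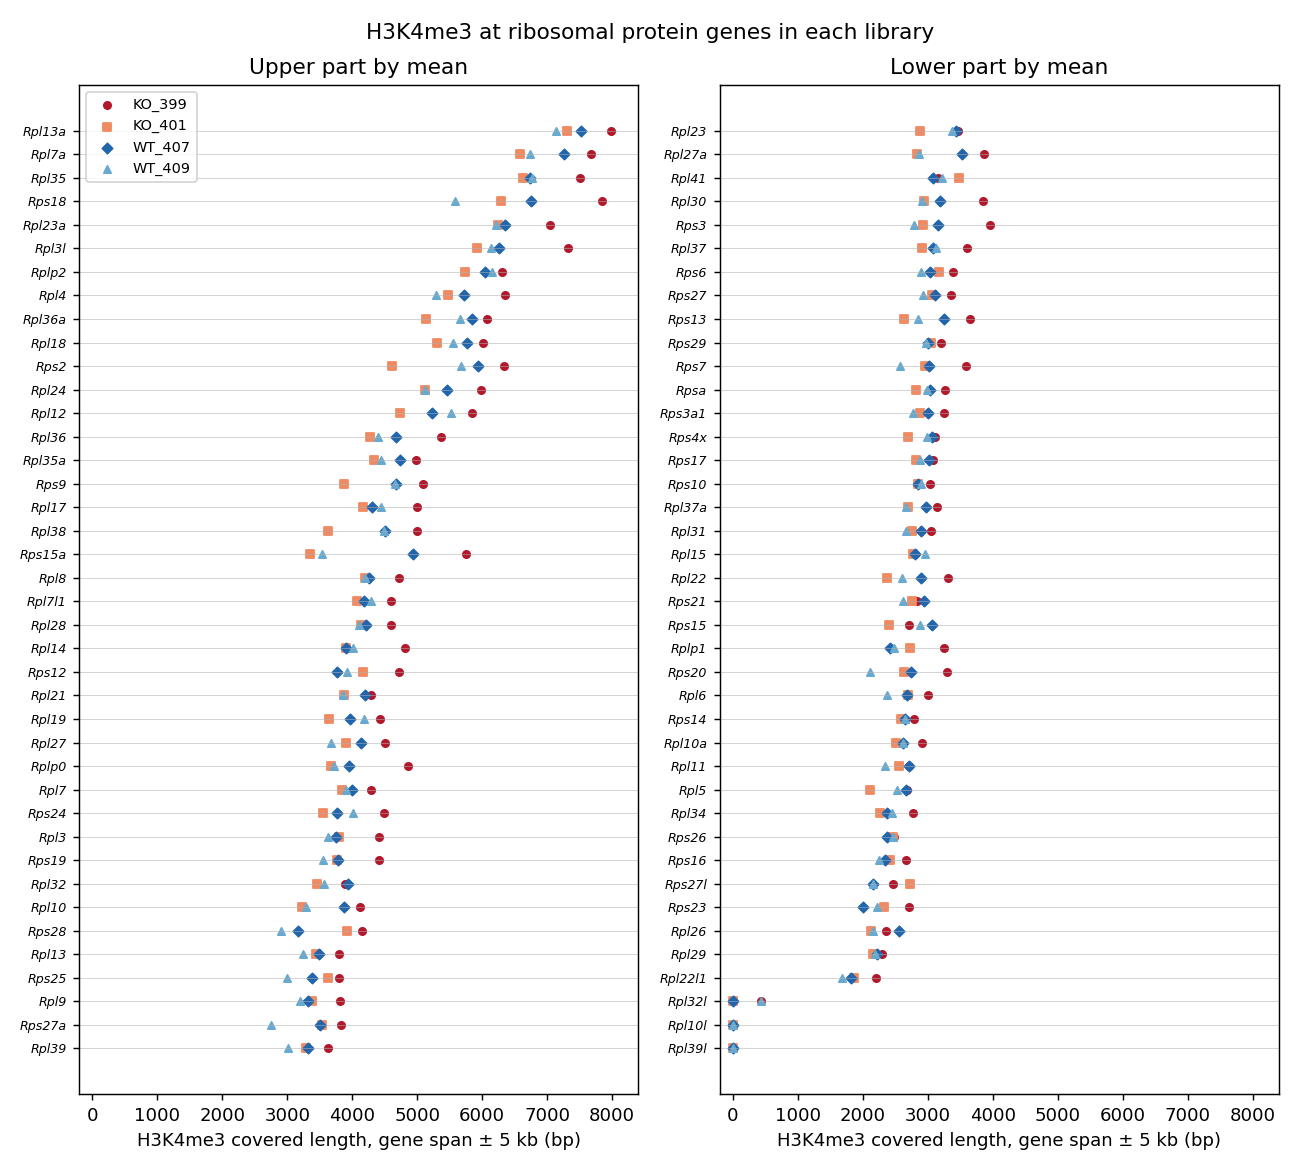
Covered length of H3K4me3 (bp, horizontal axis) in the gene span and 5 kb on either side for 80 of the 84 ribosomal protein genes (rows, sorted by the mean of the 4 libraries), with 1 symbol per library. Rpl13a leads with 7129 to 7984 bp, Rpl10l and Rpl39l lie at 0, and KO_399 is the rightmost symbol at 69 of the genes drawn.

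Rpl10l, Rpl39l and Rpl32l stood outside the rest. Both Rpl10l and Rpl39l, known from the mouse testis, had no H3K4me3 peak in any library. The nearest H3K4me3 peak to the start of Rpl10l was over 1 Mb away, at 1025183 and 1025404 bp in KO_399 and KO_401, and 1025251 and 1025385 bp in WT_407 and WT_409. For Rpl39l it was 22591 and 22585 bp away in KO_399 and KO_401, and 22621 and 213726 bp in WT_407 and WT_409. Rpl32l had 427 bp in KO_399 and 429 bp in WT_409, and none in KO_401 and WT_407. That peak had a fold of 5.5 in KO_399 and 6.1 in WT_409 and lay 3012 and 2987 bp from the gene's start.

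Rpl3l, a paralog of heart and skeletal muscle, shows how a window can borrow a mark. It had 7326 and 5914 bp of H3K4me3 in KO_399 and KO_401, and 6257 and 6131 bp in WT_407 and WT_409. None of these peaks reached its most upstream annotated start, which lay 3060 to 3292 bp from the nearest one, and only 8.80% and 6.66% of its span was covered in the KO libraries and 4.03% and 5.18% in the WT libraries. The genes Ndufb10 and Msrb1 lie in the same window. Rpl22l1, the paralog of Rpl22, had the shortest H3K4me3 of the 81 members, with 2209 and 1871 bp in KO_399 and KO_401, and 1823 and 1681 bp in WT_407 and WT_409, all in a single peak with no neighbour gene. Rpl7l1 had 4603 and 4067 bp in the KO libraries and 4188 and 4285 bp in the WT libraries.

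The members with the most bases under H3K4me3 had them in several peaks. Rpl13a, which encodes a large-subunit protein (chromosome 7, 45125563 to 45128745), had 7984 and 7301 bp in KO_399 and KO_401, and 7519 and 7129 bp in WT_407 and WT_409. Rpl7a had 7669 and 6576 bp in KO and 7261 and 6736 bp in WT, with Med22, Surf1 and Surf2 in its window. Rpl35 had 7512 and 6622 bp in KO and 6740 and 6772 bp in WT. The widest single peak, by the mean of the 4 libraries, lay elsewhere, at Rpl18, a gene singled out after its values were seen, with 6009 and 5309 bp in KO and 5769 and 5553 bp in WT. At the other end, besides Rpl22l1, stood Rpl29 with 2301 and 2159 bp in KO and 2224 and 2181 bp in WT, and Rpl26 with 2362 and 2128 bp in KO and 2561 and 2150 bp in WT. KO and WT values overlapped at all 5 of Rpl13a, Rpl7a, Rpl35, Rpl29 and Rpl26.

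The reach of H3K4me3 about the start was measured at the 64 members with an annotated start, where the most upstream start of each gene was taken. A peak covered that start in 59 members in KO_399, KO_401 and WT_409, and in 58 in WT_407. Of the 5 starts uncovered in every library, those of Rpl10l, Rpl32l, Rpl39l and Rpl3l are described above, and that of Rpl22 lay 560 to 684 bp from its peak. The mark ran mainly into the gene. Its median reach downstream was 2297 and 1973 bp in KO_399 and KO_401, and 2074 and 1915 bp in WT_407 and WT_409, against 1416, 1268, 1247 and 1262 bp over all genes with a covered start. Upstream it was 829 and 806 bp in KO and 816 and 822 bp in WT, against 747, 682, 672 and 719 bp over all genes. The downstream side was the longer one at 56, 58, 55 and 57 members in KO_399, KO_401, WT_407 and WT_409, and at 80.0% to 81.6% of all genes with a covered start.

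**Figure D2:**
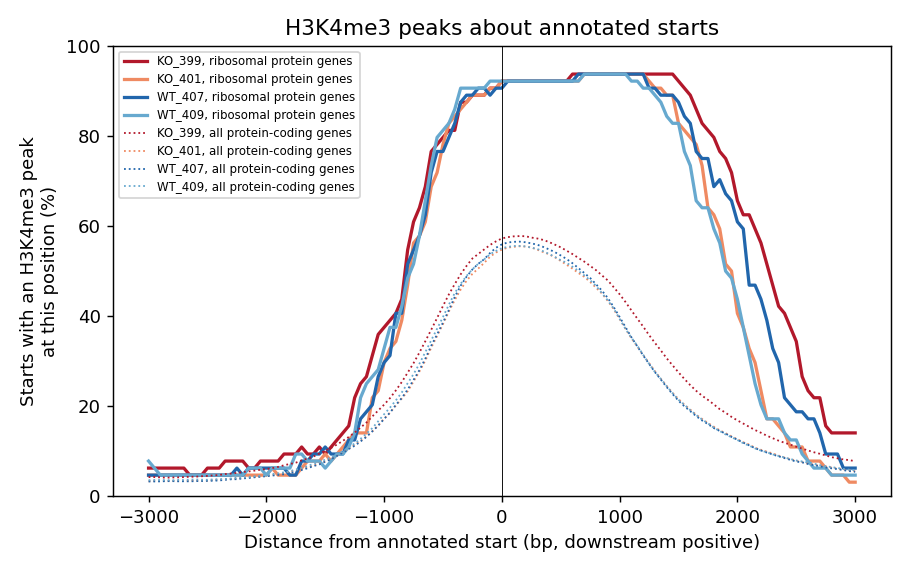
Share of annotated starts (vertical axis, %) that have an H3K4me3 peak at each distance from the start (horizontal axis, bp, downstream positive), for 64 ribosomal protein genes (solid lines) and 17492 protein-coding genes with an annotated start (dotted lines), 1 colour per library. At 2000 bp downstream the members stand at 65.6% and 40.6% in KO_399 and KO_401 and at 60.9% and 43.8% in WT_407 and WT_409.

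At 2000 bp downstream of the start the 4 libraries did not order by genotype. A peak was found there at 65.6% of the 64 members in KO_399 and 40.6% in KO_401, and at 60.9% in WT_407 and 43.8% in WT_409. The high values belonged to the KO and WT libraries with the higher background reads per position, 2.65 and 2.23, and the low ones to those with 1.93 and 1.94. Over all starts the same position was covered at 16.8% and 12.7% in KO and 12.5% and 12.5% in WT, where only KO_399 stood apart. The part of depth in this order was not tested.

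Rank was taken as the percentile of the strongest H3K4me3 peak in each window among all H3K4me3 peaks of its own library, sorted by the fold over background that the authors deposited, with 100 for the strongest. The members' median percentile was 90.2 and 89.5 in KO_399 and KO_401, and 92.3 and 91.6 in WT_407 and WT_409. For all genes with H3K4me3 it was 78.9, 77.6, 77.2 and 78.2. Percentiles above 75 were found at 73 and 67 of the 82 members with a peak in any library in KO, and at 70 and 71 in WT, or 81.7% to 89.0%, against 51.9% to 56.1% of all genes. Because the lists differ in length, a difference in rank between libraries does not by itself show a change in the mark.

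Rpsa, which is also known as a laminin receptor, held the highest mean percentile, with 98.6 and 99.4 in KO_399 and KO_401 and 97.6 and 99.7 in WT_407 and WT_409. Rpl17, Rpl13, Rpl11 and Rps10 followed with means of 98.7, 98.2, 97.9 and 97.1. Rpl11 held percentiles of 92.9, 99.4, 99.3 and 99.9 in KO_399, KO_401, WT_407 and WT_409 with only 2705 and 2552 bp of H3K4me3 in KO and 2714 and 2335 bp in WT.

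The 4 lowest mean percentiles among the 81 members with H3K4me3 in all libraries belonged to the 4 members on the X chromosome, a split noticed after the values were seen. Rpl39 held 66.2 and 68.5 in KO_399 and KO_401, and 61.6 and 68.9 in WT_407 and WT_409. Rpl36a held 68.9 and 64.2 in KO, and 66.6 and 72.0 in WT. Rps4x held 69.4 and 67.6 in KO and 71.2 and 65.7 in WT, and Rpl10 held 71.4 and 65.7 in KO and 70.6 and 73.2 in WT. Single autosomal members were as low in single libraries, but the lowest autosomal mean was 76.4, at Rpl21, whose values ran from 63.2 in KO_401 to 95.5 in WT_407. Over all 457 X-linked genes with H3K4me3 the median percentile was 67.3 and 64.2 in KO and 63.6 and 66.5 in WT, against 79.6 and 78.3 in KO and 78.0 and 79.0 in WT for autosomal genes. The X-linked members were not short of covered bases, with 4230 and 3590 bp per gene in KO and 4021 and 3734 bp in WT, against 4041 and 3466 bp in KO and 3654 and 3469 bp in WT for autosomal members. Peaks on the Y chromosome were listed in every H3K4me3 library (42 and 33 in KO, 31 and 33 in WT). The number of X chromosomes in these mice was not tested.

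**Figure D3:**
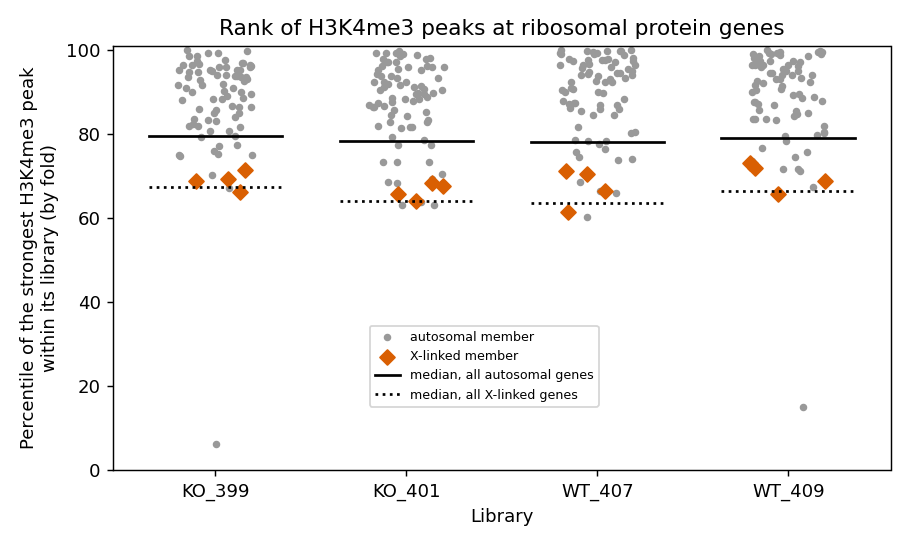
Percentile of the strongest H3K4me3 peak within its own library (vertical axis, 100 is strongest) at each ribosomal protein gene in the 4 libraries (horizontal axis), with autosomal members in grey and X-linked members as orange diamonds. Solid and dotted bars are the medians of all autosomal and all X-linked genes with H3K4me3, 78.0 to 79.6 and 63.6 to 67.3, and all X-linked members lie below the solid bars.

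In the comparison of KO with WT, the covered length of H3K4me3 at ribosomal protein genes did not separate the genotypes. It averaged 3761 ± 409.2 bp in KO and 3577 ± 134 bp in WT (SD, n = 2 each), a difference of 184 bp that is smaller than the spread between the KO mice. Without KO_399 the difference was -105 bp. The widest peak per member averaged 3133 ± 317 bp in KO and 2961 ± 118 bp in WT (SD, n = 2 each). The mean percentile of the strongest peak was 87.2 and 86.7 in KO_399 and KO_401, and 88.7 and 88.2 in WT_407 and WT_409, lower in both KO with a KO minus WT difference of -1.48. Over all genes with H3K4me3 that difference was 0.34. With each list held to its 25090 peaks of lowest q-value the members' difference was -1.30, and none of these was tested. Divided by the mean over all genes with H3K4me3 in the same library, covered length was 1.20 and 1.22 in KO_399 and KO_401, and 1.29 and 1.19 in WT_407 and WT_409. KO_399 was the longest of the 4 libraries at 72 of the 82 members with H3K4me3, and at 72.4% of all genes with it. KO_401 was the longest at 2 members, Rps27l and Rpl41, and at 4% of all genes. It was the shortest at 40 members, for which the share over all genes is not given here.

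At 16 of the 82 members with H3K4me3 in any library (19.5%), each KO library had more covered bases than either WT library, against 22.1% of all genes with the mark. At 2 members (2.44%) each KO library had fewer, against 3.63%. These shares lie near those of all genes. After division by the mean over all genes, a setting added after the data were seen, 7 members were higher and 18 lower in both KO, against 11.8% and 18.5% of all genes, so the balance of the 2 directions depends on how the libraries are scaled. Of the 16, 6 were still higher in both KO after this division, and both of the 2 were still lower. Without KO_401, 73 members were higher in KO_399 than in both WT libraries, and without KO_399, 40 were lower in KO_401 than in both WT libraries. The matching shares over all genes are not given here, and KO_399 was the longest library at 72.4% of all genes with H3K4me3. These 2 counts are therefore no result about the members.

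Rps28, a small-subunit protein whose gene is mutated in some patients with Diamond-Blackfan anaemia, showed the largest difference of the 16. It had 4153 and 3914 bp of H3K4me3 in KO_399 and KO_401, against 3161 and 2904 bp in WT_407 and WT_409, a KO minus WT difference of 1001 bp (exact permutation p = 0.33, n = 2 each, the smallest possible). The groups did not overlap, and did not after division by the all-gene mean either (1.23 and 1.38 in KO, 1.11 and 0.989 in WT). The peak over its start reached farther on both sides, to 1400 and 1253 bp upstream in KO against 1050 and 1036 bp in WT, and to 1638 and 1746 bp downstream in KO against 1503 and 1353 bp in WT. Its window also holds Kank3 and Ndufa7.

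Rps27l, a paralog of Rps27 and a gene induced by p53 in human cells, had 2464 and 2729 bp of H3K4me3 in KO_399 and KO_401, against 2162 and 2164 bp in WT_407 and WT_409. The groups did not overlap (exact permutation p = 0.33, n = 2 each, the smallest possible and the same for every gene without overlap). Here KO_401, not KO_399, was the higher of the KO libraries. The single peak over its start reached 1607 and 1880 bp downstream in KO, against 1241 and 1310 bp in WT, while upstream the groups overlapped with 856 and 848 bp in KO and 920 and 853 bp in WT. No other protein-coding gene lies within 5 kb. After division by the all-gene mean the groups overlapped, at 0.730 and 0.961 in KO and 0.760 and 0.737 in WT.

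The other members of the 16 had smaller or less even differences. Rps12 had 4719 and 4163 bp in KO and 3767 and 3925 bp in WT, and no protein-coding neighbour. Rps27a, made as a fusion with ubiquitin, had 3828 and 3535 bp in KO and 3507 and 2747 bp in WT, where KO_401 and WT_407 are close. Rplp1, a protein of the ribosomal stalk, had 3257 and 2730 bp in KO and 2424 and 2473 bp in WT. Rps25 had 3799 and 3621 bp in KO and 3382 and 2991 bp in WT. Further genes, Rpl3, Rps23, Rpl9, Rpl6, Rps6, Rpl22l1, Rps16 and Rps29, differed by 139 bp (Rps29) to 417.5 bp (Rpl3) between the genotype means. Among them Rps16 had 2658 and 2421 bp in KO and 2337 and 2256 bp in WT, and Rps29 had 3203 and 3045 bp in KO and 2998 and 2972 bp in WT. Of the genes named here, Rps28, Rplp1, Rps23 and Rpl22l1 were higher in both KO with a 2 kb window and with a fold of at least 10. They were so too with equal numbers of peaks and after division by the all-gene mean. All 16 stayed higher with the 2 kb window and with equal numbers of peaks. These settings use the same 4 libraries, and the share of all genes that passes all of them is not given here.

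Rps15 and Rpl15 were the 2 members with less H3K4me3 in both KO libraries. Rps15 had 2717 and 2403 bp in KO and 3062 and 2877 bp in WT, a KO minus WT difference of -409.5 bp. With peaks of a fold of at least 10 its groups overlapped. Rpl15 had 2796 and 2765 bp in KO and 2808 and 2950 bp in WT, where KO_399 and WT_407 differ by little.

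**Figure D4:**
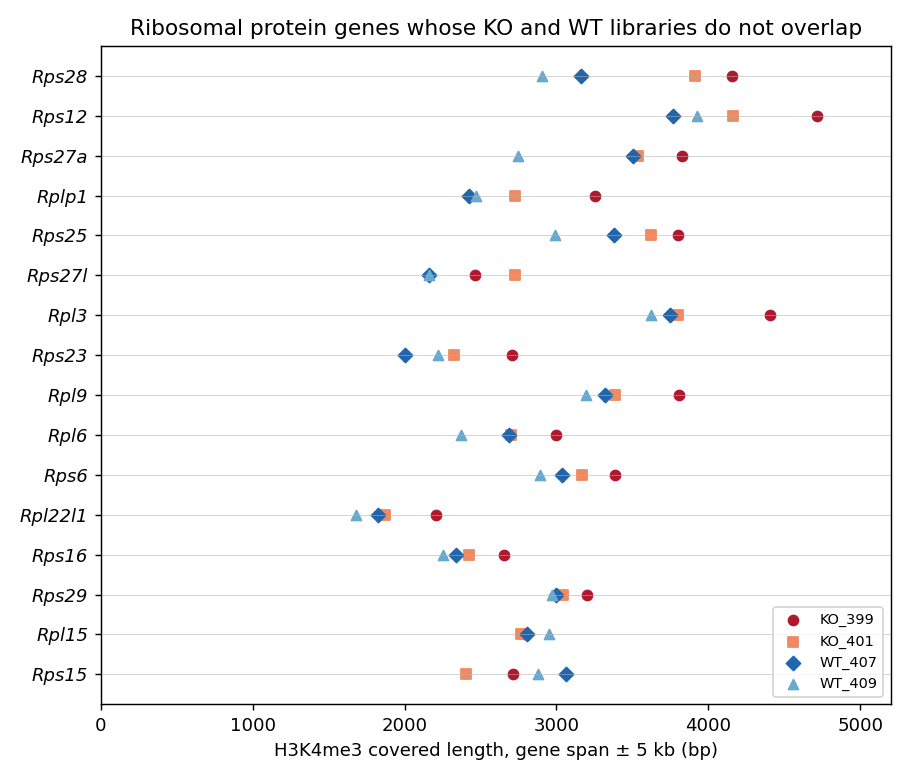
Covered length of H3K4me3 (bp, horizontal axis) in each library at 16 of the 18 ribosomal protein genes whose KO and WT libraries do not overlap, sorted from the largest to the smallest KO minus WT difference (1001 bp at Rps28, -409.5 bp at Rps15). Both KO symbols lie to the right of both WT symbols in the upper 14 rows and to the left in the lower 2.

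By direction from the start, the KO reach downstream exceeded the WT reach without overlap at 16 of the 58 members whose start was covered in all 4 libraries, against 28.2% of all such genes, and fell short of it at none, against 4.62%. Upstream it was longer at 10, against 21.7%, and shorter at 5, against 8.18%. These are counts with no test.

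The subunits and the disease genes were described by the same counts, to be read beside the 22.1% of all genes longer and 3.63% shorter in both KO. Of the 32 small-subunit members, 10 were longer (31.25%) and 1 was shorter in both KO. Of the 50 large-subunit members with H3K4me3, 6 were longer (12%) and 1 was shorter. Whether the subunits differ was not tested. All 23 genes of the Diamond-Blackfan anaemia list had H3K4me3 in all 4 libraries, against 64.3% of all genes. Of these, 3 (13.0%) were longer in both KO (Rps28, Rps29 and Rpl9) and 1 (4.35%) was shorter (Rpl15). Rps19, the gene most often mutated in that disease, had 4414 and 3770 bp in KO and 3775 and 3557 bp in WT, so that the groups overlapped. Of the genes tied to p53, Rpl11 and Rpl5 overlapped as well, Rpl5 with 2673 and 2115 bp in KO and 2669 and 2524 bp in WT. Rpl23, which also binds Mdm2, had 3468 and 2885 bp in KO and 3432 and 3377 bp in WT. Rps14, lost in a form of human myelodysplastic syndrome, had 2794 and 2592 bp in KO and 2644 and 2652 bp in WT.

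Lists of other genes of ribosome and protein production were counted in the same way. All 78 mitochondrial ribosomal protein genes had H3K4me3 in all 4 libraries, 18 longer (23.1%) and 2 shorter in both KO. All 40 ribosome biogenesis factors had it, 11 longer (27.5%) and none shorter, and all 32 translation factors had it, 8 longer (25%) and none shorter. The shares longer in both KO lie near the 22.1% of all genes. Their median percentiles were 86.8, 84.1 and 88.7, against 89.5 for the ribosomal protein genes. H3K4me3 covered a median of 20.5% and 17.5% of the span of the mitochondrial ribosomal protein genes in KO_399 and KO_401, and 17.5% and 17.5% in WT_407 and WT_409. Their median span of 7690.5 bp is longer than that of the ribosomal protein genes. Their median downstream reach was 1216 and 1063 bp in KO and 1100 and 1068 bp in WT. At the translation factors it was 2077 and 1763 bp in KO_399 and KO_401, and 2116 and 1743 bp in WT_407 and WT_409. The long downstream reach of the ribosomal protein genes was thus not particular to them.

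Few members had H3K27me3. No H3K27me3 peak lay within 5 kb of 74 of the 84 members in any library, and 10 had one in at least 1 library (11.9%), against 29.8% of all protein-coding genes. In all 4 libraries it was found at 5 members (5.95%), against 19% of all genes. The members have shorter windows, with a median of 13179 bp against 27169 bp over all genes, and the part of this was not tested. Kindred lists had few such genes too. H3K27me3 in any library lay at 9 of 78 mitochondrial ribosomal protein genes, 6 of 40 ribosome biogenesis factors and 3 of 32 translation factors. Of the 10 ribosomal protein genes, 5 and 9 had a peak in KO_399 and KO_401, and 9 and 10 in WT_407 and WT_409. Only at Rpl19 did H3K27me3 enter the annotated span of the member itself. It covered 404 and 873 bp there in KO_399 and KO_401, and 838 and 1096 bp in WT_407 and WT_409. The nearest peak edge lay upstream of the annotated start of Rpl19 in every library. It stood at -4237 and -3835 bp in KO_399 and KO_401, and at -3870 and -3612 bp in WT_407 and WT_409. Cacnb1 lies in the same window. At the other 9 members H3K27me3 lay in the flanks, and 8 of these have another protein-coding gene in the window.

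Rps15 had 727 and 753 bp in KO and 2479 and 3230 bp in WT, with Dazap1 and Apc2 in its window. Its H3K4me3, given above, was shorter in both KO libraries too, and the 2 marks shared 293 bp in WT_409 and none in the other libraries. Rpl22 had 844 and 2103 bp in KO and 2210 and 2404 bp in WT, 12243 to 13803 bp from its annotated start and next to Chd5, a chromatin remodeller of neurons.

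At Rpl23a, with Nek8, Tlcd1 and Rab34 nearby, the libraries overlapped, with 960 and 1963 bp in KO and 1446 and 2733 bp in WT. Rpl19 overlapped too, with 404 and 2171 bp in KO and 1956 and 2538 bp in WT. Rpl10a, Rpl38, Rpl17 and Rpl26 were among the members without a peak in KO_399. Rpl10a had 0 and 1808 bp in KO and 2098 and 2785 bp in WT, and Rpl38, which in mice is needed for the translation of a subset of Hox mRNAs, had 0 and 1070 bp in KO and 877 and 1946 bp in WT. Rpl26 had 1198 bp in WT_409 alone.

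At 6 of the 10 members each KO library had fewer H3K27me3 bases than either WT library, against 70% of all genes with the mark. At none had each KO library more, against 0.0154%. KO_399 had the least at 9 of the 10 and WT_409 the most at 9, and the matching shares over all genes are not given here. The background of the H3K27me3 libraries was 3.30 and 3.67 reads per position in KO_399 and KO_401, and 3.09 and 3.15 in WT_407 and WT_409. The part of depth in these values was not tested. Over all 84 members H3K27me3 averaged 130 ± 80.9 bp in KO and 250 ± 56.7 bp in WT (SD, n = 2 each). Per gene over all 21887 genes it averaged 706 and 1053 bp in KO_399 and KO_401, and 1468 and 1391 bp in WT_407 and WT_409. Bases under both marks were found in the windows of 7 of the 10 members in at least 1 library. At all of these but Rpl19 the shared bases lay outside the member's span. The matching share over all genes is not given here, so this count is no result about the members.

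**Figure D5:**
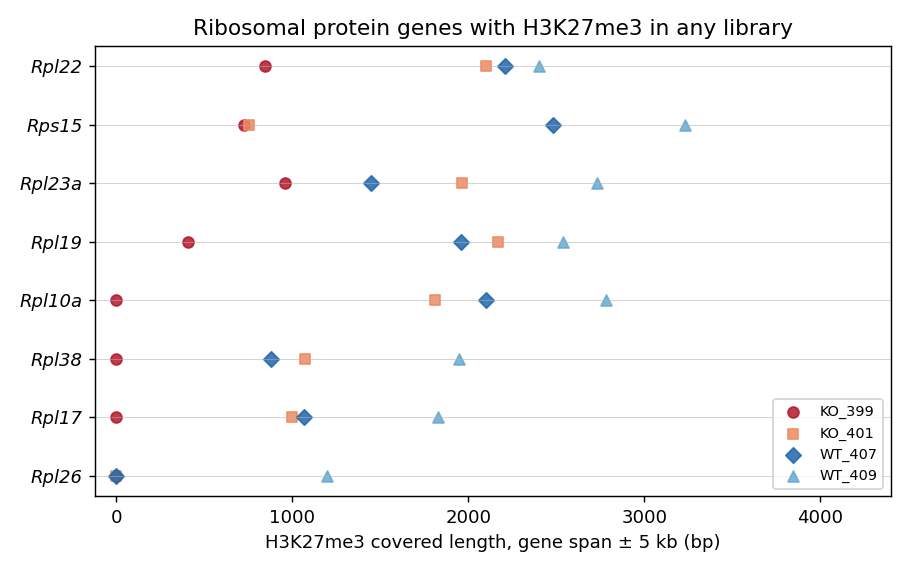
Covered length of H3K27me3 (bp, horizontal axis) in the gene span and 5 kb on either side at 8 of the 10 ribosomal protein genes with such a peak in any library (rows, sorted by the mean), 1 symbol per library. KO_399 lies at 0 for 4 of them, and Rps15 stands at 727 and 753 bp in KO and at 2479 and 3230 bp in WT.

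Inside the spans of 30 members the RefSeq table lists 59 snoRNA genes, with 5 in Rpl4 and 4 each in Rpl7a and Rpl13a. snoRNAs of this kind are released from the introns of their host genes. Rpl4 had 6345 and 5476 bp of H3K4me3 in KO_399 and KO_401, and 5727 and 5283 bp in WT_407 and WT_409. The KO and WT values overlapped.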

How the data were processed

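The submitters' processing notes name MACS2 for peaks, Bowtie2 and SAMtools for reads, and FastQC, deepTools and Trim Galore, with the build mm10; versions, settings and the use of the inputs are not given in the sources used here. Per the labels, chromatin was fixed in 1% formaldehyde, sheared to 100 to 300 bp and read at 75 bp. One deposited narrowPeak list was read for every one of 8 immunoprecipitated libraries, and the 4 input libraries were not used here. The deposited columns hold a score, a fold over background (a ratio) and the −log10 of the p-value and q-value of each peak, all the authors' values, used only to describe and rank peaks of 1 list. No fold lay at or under 5, and 24.8% to 78.0% of the peak numbers up to the highest were listed, so 0 bp means no listed peak.

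The members and lists were chosen with earlier results of these data known. Members were matched by symbol to RefSeq GRCm38.p6, with 21887 protein-coding genes on the autosomes and sex chromosomes. An H3K4me3 peak lay within 1 kb of a gene end at 57.0% to 59.7% of genes, and at 12.8% to 14.4% with coordinates moved by 100 kb. Covered bases, the widest peak and the highest percentile of fold were taken from peaks with at least 1 bp in the span plus 5 kb. A start is the most upstream one of a gene in the promoter table. Background reads were solved from fold and p (within 0.001 of −log10 p, for peaks under 300). Named members: those without H3K4me3 in all 4 libraries, those with H3K27me3, the 5 highest and 5 lowest by covered length, percentile and KO minus WT difference (the last among genes without overlap of the groups), the paralogs and the genes tied to p53. Some genes that meet this rule are not reported here, though every count over the members includes them. Other members named are examples of the lists, picked after their values were seen. Code (Python 3.11.15, pandas 2.3.3, numpy 2.4.6) was tested on simulated peaks. Tests are two-sided exact permutation tests of single genes. With 2 mice per genotype no score over the members was tested. Alternatives were a 2 kb window, a fold of 10, equal peak numbers, an overlap of 200 bp, ranks by q, each library left out, and division by the all-gene mean.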

Additional observations from a re-analysis of the deposited data

How the results depend on the processing

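Of the alternatives run for the 7 summary values, 52 stayed within 1.5 times the reported count or within 1 SD of the reported value and 10 did not. The 81 members with H3K4me3 in all 4 libraries stayed 81 under every alternative run. With 1 library left out, members longer in KO numbered 17 to 73 (73 without KO_401, 39 without WT_407), members shorter in KO 2 to 40 (40 without KO_399, 7 without WT_409), and members with H3K27me3 in any library 9 to 10. Shares over all genes are not given for these counts. With 1 library left out, the covered length difference (KO minus WT) ran from -105 to 474 bp, that of the widest peak from -52.1 to 396 bp, both negative without KO_399, and that of the percentile from -1.77 to -1.20. A fold of at least 10 left 1 member shorter in both KO, 6 members with H3K27me3 and a percentile difference of -2.07, against -1.48 with all listed peaks. A 2 kb window left 6 members with H3K27me3. Division by the all-gene mean, added after seeing the data, gave 7 longer, 18 shorter and a difference of -0.0268 in the ratio. No paired analysis was possible because the KO and WT libraries share no replicate number. Peaks under a fold of 5 are not in the lists, so a weak mark at a member cannot be told from none.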

Other observations

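Fau and Rpl36al also encode cytosolic ribosomal proteins, with symbols outside the rule. Fau, made as a fusion with a ubiquitin-like protein, had 5624 and 5196 bp of H3K4me3 in KO_399 and KO_401, and 5010 and 4898 bp in WT_407 and WT_409, higher in both KO. Rpl36al had 5215 and 4404 bp in KO and 4798 and 4077 bp in WT. The groups overlapped at Rpl36al.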
